A study of Homo sapiens with 24 samples.

Results

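HT-144 melanoma cells were transfected with a pool of siRNAs against SREBF1 and compared with the same cells given a scramble siRNA. HT-144 is an established human melanoma line derived from a metastatic site. The comparison covered 8 of the 24 sequenced samples: 4 labelled siSREBF1 and 4 labelled siNegative, chosen by their titles. Each set of 4 was sequenced from 1 RNA sample and counts as technical replicates per the series text, so the 4 were summed and the comparison rests on 2 of the 6 libraries. Both siRNAs were used at 50 nM with the transfection reagent Lipofectamine RNAiMAX, and RNA was taken on day 3. All cells were kept in serum-free RPMI medium with insulin, transferrin and selenium (1% ITS), with glutamine and antibiotics. The other 4 libraries were mock cells, cells given a negative control antisense oligonucleotide (ASO-Neg), and cells given either of 2 antisense oligonucleotides against SREBF1, ASO-SREBF1-S1 or its counterpart ASO-SREBF1-S4. The ASOs were used at 5 nM, so the siRNA and ASO doses differed by design.

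SREBF1 encodes the SREBP-1 proteins, transcription factors held in the endoplasmic reticulum membrane by SCAP and the INSIG proteins. When sterols are low, SCAP carries them to the Golgi, where the MBTPS1 and MBTPS2 proteases release the part that enters the nucleus. SREBP-1 is known mainly for driving genes of fatty acid synthesis and desaturation, and the related SREBP-2, from SREBF2, for driving genes of cholesterol synthesis and uptake.

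Gene counts came to 13206869 in siSREBF1 and 20014261 in siNegative, and to between 12916478 and 47900277 in the other libraries. Melanoma identity was checked first. All 10 melanocytic and neural crest markers had counts, and their summed level was 4917 CPM (read counts scaled to a common library size) in siSREBF1, 5708 in siNegative and 6978 in mock. Of 10 immune markers, none reached 10 CPM in either library of the pair, their sum was 1.64 CPM in siSREBF1 and 1.11 in siNegative, and CD3E and FCGR3A were at 0 in both. Of 10 fibroblast markers 4 reached 10 CPM, led by COL1A2, with a summed level of 802 CPM in siSREBF1 and 719 to 937 in the 3 controls. Of 10 keratinocyte markers only KRT10 reached 10 CPM, and of 9 endothelial markers 2 did, KDR and EGFL7.

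A pair of measures is used throughout, both on CPM scaled by the trimmed mean of M-values (TMM) of edgeR. The first is the log2 ratio of siSREBF1 over siNegative, with a 95% interval that covers counting error only. It compares 2 libraries and has no replicate check, so no p-value is given, and a gene is called higher or lower when the ratio is at least 1 on the log2 scale with at least 10 CPM in either library. The second is edgeR's quasi-likelihood test of siSREBF1 against the 3 controls (mock, siNegative and ASO-Neg) with Benjamini-Hochberg adjustment at 0.05, and "rose" and "fell" below refer only to genes past it. That test assumes that the single siSREBF1 library varies like the controls and the ASO pair, and its p-values measure the spread between these libraries only. The controls received different reagents or none. Members of a gene list are counted as measured where they reach 10 CPM in either library of the pair. The lists were chosen with earlier results of these data known, so counts of calls within a list are descriptive only.

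The siRNA pool left most of the transcriptome near its control level. Of 9860 genes with at least 10 CPM, 30 were higher (0.304%) and 18 were lower (0.183%) than in siNegative, and 96.1% lay within 0.5 on the log2 scale of no difference. The median ratio was -0.0028, with an SD across genes of 0.23. The same rule between controls called 1 gene in siNegative over mock (0.0102%), 8 in ASO-Neg over mock (0.0819%) and 9 in siNegative over ASO-Neg (0.0919%). Among 16297 genes tested against the 3 controls, 21 rose (0.129%) and 44 fell (0.27%), and 1581 had an unadjusted p under 0.05. Of the 30 higher genes 8 also rose by the test, and of the 18 lower genes 13 also fell. These calls depend on all 3 controls: without mock, without siNegative or without ASO-Neg, the calls were SCG2 upward and SREBF1 and ATP6V1D downward, and 62 of the 65 genes were no longer past the threshold. The same 3 were called when siRNA use was added as a term, which sets siSREBF1 against siNegative alone. Leaving out either ASO library instead added calls. All 65 kept their direction under all 12 alternatives wherever a value could be had.

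**Figure D1:**
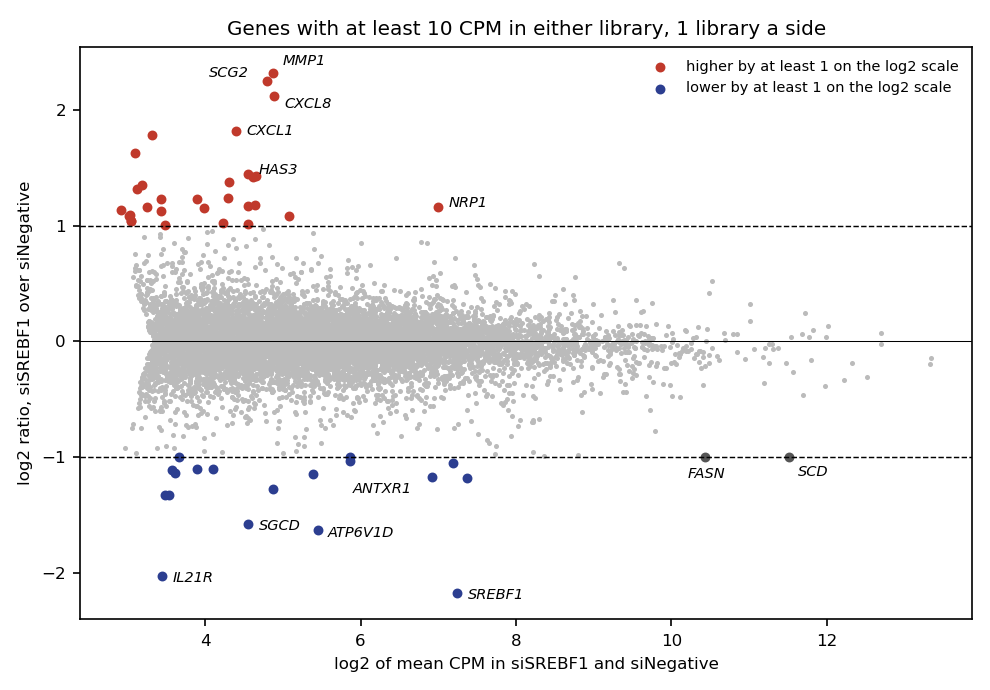
Log2 ratio of siSREBF1 over siNegative (vertical axis) against the log2 of the mean CPM in the 2 libraries (horizontal axis) for 9860 genes, 1 point a gene, with dashed lines at 1 and -1. The 30 higher genes are red and the 18 lower genes blue; MMP1, SCG2 and CXCL8 are at the top, SREBF1 at the bottom, and SCD and FASN (dark grey) lie on the lower line at high abundance.

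The targeted transcript was strongly reduced. SREBF1 (ENSG00000072310, chromosome 17, 17810399 to 17837002, GRCh38) measured 229 CPM in mock, 248 in siNegative, 220 in ASO-Neg, 54.8 in siSREBF1, 78.2 with ASO-SREBF1-S1 and 69.4 with ASO-SREBF1-S4. The 3 reagents against SREBF1 were all below the 3 controls, with siSREBF1 lowest. The siSREBF1 level was 22.1% of siNegative, a log2 ratio of -2.18 (95% interval -2.29 to -2.07), and against the 3 controls SREBF1 fell by 2.09 on the log2 scale (SE 0.13, edgeR adjusted p = 0.000673). The siSREBF1 library was lower than the ASO pair by 0.43 on the log2 scale, a difference that did not pass edgeR's test (adjusted p = 0.324). SREBF2, the paralog that encodes SREBP-2, measured 503 CPM in siSREBF1 and 565 to 599 in the controls, a log2 ratio of -0.17 that did not pass the test (adjusted p = 0.515).

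Among 12 measured SREBP factors and control proteins, 2 fell, SREBF1 and INSIG1. INSIG1, which retains SCAP and the SREBPs in the endoplasmic reticulum and is itself a known SREBP target, measured 526 CPM in mock, 588 in siNegative, 592 in ASO-Neg, 298 in siSREBF1, 387 with ASO-SREBF1-S1 and 393 with ASO-SREBF1-S4. The siSREBF1 level was the lowest of the 6, and the groups did not overlap. INSIG1 fell by 0.93 on the log2 scale (SE 0.11, edgeR adjusted p = 0.0171). SCAP, the carrier, had a log2 ratio of -0.03, INSIG2 of 0.08 and the protease gene MBTPS1 of -0.19, and none passed the test.

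The promoter of INSIG1 is shown because it is the SREBP feedback gene that fell and its window holds a letter match to the E-box, a motif that SREBP-1 is known to bind. The 110 bases from 150 to 41 before the RefSeq start (GRCh38.p14, chr7:155297728-155297837, plus strand) carry the E-box CACGTG in capitals.
INSIG1: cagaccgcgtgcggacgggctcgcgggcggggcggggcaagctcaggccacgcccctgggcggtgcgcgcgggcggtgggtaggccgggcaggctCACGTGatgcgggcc
CACGTG, which reads the same on both strands, is present in the 250 bases before the start of 6.49% of 27305 RefSeq promoters and of 9.40% of the 8084 promoters of genes with at least 10 CPM. The sterol element TCACNCCAC, searched on both strands, is present in 0.875% of all promoters. Of the 43 lower genes (by either measure) with a promoter in the table, CACGTG was found in INSIG1 and MINDY2 and the sterol element in COQ5. A match describes letters and is no evidence of binding.

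Fatty acid synthesis genes were lower as a group, mostly by small amounts. All 11 measured members of the fatty acid synthesis list had ratios below 0, and 10 of 11 were below all 3 controls, where 33.9% of all 9860 genes were. Their median was -0.18 against -0.0028 for all genes. The list mixes the cytosolic route from acetate and citrate with the mitochondrial synthesis enzymes MCAT (-0.02), OXSM (-0.01) and MECR (-0.16). FASN, the fatty acid synthase, was the single member that fell. It measured 1863 CPM in mock, 1833 in siNegative, 1686 in ASO-Neg, 917 in siSREBF1, 1253 with ASO-SREBF1-S1 and 1018 with ASO-SREBF1-S4. FASN was lowest in siSREBF1 and higher in each control than in any library with an SREBF1 reagent. It fell by 0.97 on the log2 scale (SE 0.14, edgeR adjusted p = 0.0349). ACLY, which makes cytosolic acetyl-CoA from citrate, had a ratio of -0.48, ACSS2, which makes it from acetate, -0.47, and ACACA, the acetyl-CoA carboxylase, -0.37, none past the test.

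Desaturation genes divided by member. SCD, which places the first double bond into saturated fatty acids, measured 4235 CPM in mock, 3900 in siNegative, 4181 in ASO-Neg, 1951 in siSREBF1, 2377 with ASO-SREBF1-S1 and 2286 with ASO-SREBF1-S4. The lowest control was far above the highest library with an SREBF1 reagent. SCD fell by 1.07 on the log2 scale (SE 0.12, edgeR adjusted p = 0.0148), and it and FASN lay just short of the size rule against siNegative, at ratios of -0.9989 (SCD) and -0.9997 (FASN). FADS1 and FADS2, the delta-5 and delta-6 desaturases, had ratios of -0.67 and -0.66 but adjusted p of 0.0611 and 0.0749. The elongase ELOVL6 was at -0.47, while ELOVL2 was at 0.29, SCD5 at 0.15 and ELOVL1 at 0.22. Of the 14 measured desaturase and elongase genes, 8 were below 0 and 1 passed the test.

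**Figure D2:**
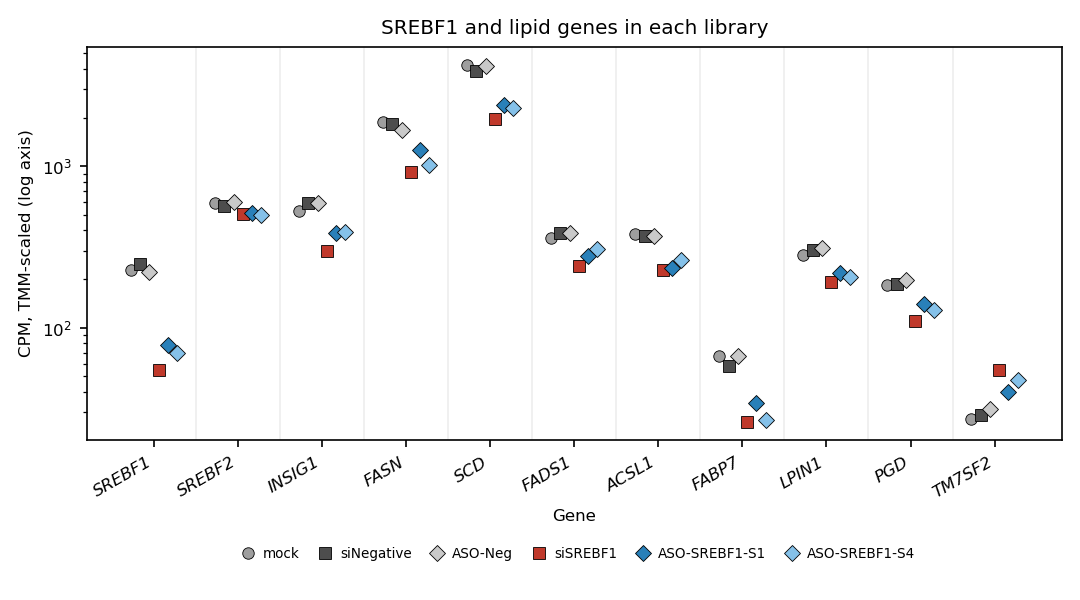
CPM on a log axis of SREBF1, SREBF2 and 9 lipid genes (horizontal axis) in each of the 6 libraries, 1 symbol a library with no error bars, since each is 1 sample. Red squares (siSREBF1) lie below the 3 grey controls for SREBF1, INSIG1, FASN, SCD, FADS1, ACSL1, FABP7, LPIN1 and PGD, slightly below for SREBF2, and above them for TM7SF2.

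Genes that take up, bind or activate fatty acids were mostly below the controls. Among all 9860 genes, 33.9% were below all 3 controls. FABP7, a fatty acid binding protein of neural crest-derived cells, measured 66.5 CPM in mock, 57.9 in siNegative, 66.6 in ASO-Neg, 26.0 in siSREBF1, 34.3 with ASO-SREBF1-S1 and 26.9 with ASO-SREBF1-S4. All libraries with an SREBF1 reagent were below all controls, and siSREBF1 and ASO-SREBF1-S4 were nearly level. FABP7 fell by 1.29 on the log2 scale (SE 0.16, edgeR adjusted p = 0.0183). ACSL1, a fatty acid activating ligase, fell by 0.72 (SE 0.11, adjusted p = 0.0463), from 367 CPM in siNegative to 226. In the list for uptake, binding and activation, 10 of 11 members were below 0, 9 were below all 3 controls and 2 fell, with a median of -0.23. LPIN1, a phosphatidate phosphatase on the route to triglyceride, fell by 0.63 (SE 0.10, adjusted p = 0.0448), the single gene past the test among 16 glycerolipid genes. MGLL, the monoglyceride lipase, was 27.5 CPM in siSREBF1 and 11.6 in siNegative, a ratio of 1.24 that met the size rule but did not pass the test (adjusted p = 0.192), and PLIN2, a lipid droplet coat protein, was at 0.42.

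NADPH supply and oxidation each had 1 gene past the test. PGD, the pentose phosphate enzyme that yields NADPH, fell by 0.78 on the log2 scale (SE 0.10, edgeR adjusted p = 0.0187), with 110 CPM in siSREBF1 and 184 to 198 in the controls. HADHA, a subunit of the mitochondrial trifunctional protein of fatty acid oxidation, fell by 0.64 (SE 0.10, adjusted p = 0.039), from 556 CPM in siNegative to 365. The oxidation list as a whole had a median of -0.02, with 13 of 23 members below 0, close to the 50.6% of all genes.

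Cholesterol synthesis genes showed no common direction. Of 21 measured, 11 were above and 10 below 0, with a median of 0.00. IDI1 had a ratio of -0.47 (adjusted p = 0.0849), FDPS of -0.44 and HMGCS1 of -0.38, whereas MSMO1 was at 0.33 and NSDHL at 0.28. TM7SF2, a sterol C14-reductase, was the single member past the test. It measured 27.3 CPM in mock, 28.8 in siNegative, 31.5 in ASO-Neg, 55.1 in siSREBF1, 39.8 with ASO-SREBF1-S1 and 47.8 with ASO-SREBF1-S4. It rose by 0.91 on the log2 scale (SE 0.13, edgeR adjusted p = 0.0334), and every library with an SREBF1 reagent lay above every control. Among 12 sterol uptake and transport genes none passed the test: the HDL receptor SCARB1 had a ratio of -0.48, and ABCA1, a cholesterol exporter, of 0.95 (adjusted p = 0.131).

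Of all genes, SCG2 had the smallest adjusted p. SCG2 (ENSG00000171951, chromosome 2, 223596940 to 223602361), a secretogranin of dense-core secretory granules, measured 8.83 CPM in mock, 9.57 in siNegative, 9.89 in ASO-Neg, 45.9 in siSREBF1, 6.78 with ASO-SREBF1-S1 and 6.55 with ASO-SREBF1-S4. It was high in siSREBF1 only, and both ASO libraries lay below the controls. SCG2 rose by 2.28 on the log2 scale (SE 0.12, edgeR adjusted p = 0.000491), a ratio of 2.25 (95% interval 2.03 to 2.5) over siNegative. PCSK2, a granule convertase that processes prohormones, was at 20.9 CPM in siSREBF1 and 8.87 in siNegative, and EDN3, the endothelin that acts on melanocyte-lineage cells, at 14.96 and 7.41; neither passed the test (adjusted p = 0.0986 and 0.0749). Of 10 measured genes for granule proteins and peptide hormones, 8 were above 0, with a median of 0.29. Over ASO-Neg the list median was -0.22 with ASO-SREBF1-S1, with 8 of 10 below 0, and 0.01 with ASO-SREBF1-S4, with 5 below 0. Like SCG2, PCSK2 was lower than ASO-Neg in both ASO libraries (-0.41 and -0.73), as was EDN3 (-0.86 and -0.59).

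Of 20 chemokine and cytokine genes tested, 3 rose: CXCL8, IL1A and IL1B. In the list, 8 reached 10 CPM, 6 of these were above 0 and the median was 0.29. CXCL8, the neutrophil attractant interleukin-8, measured 7.28 CPM in mock, 10.98 in siNegative, 9.18 in ASO-Neg, 48.2 in siSREBF1, 16.3 with ASO-SREBF1-S1 and 25.8 with ASO-SREBF1-S4. The siSREBF1 library was highest, and both ASO libraries also lay above the controls. CXCL8 rose by 2.38 on the log2 scale (SE 0.25, edgeR adjusted p = 0.0105). IL1A and IL1B, the 2 interleukin-1 cytokines, stayed under 10 CPM in all libraries. IL1A measured 1.01, 0.907 and 0.775 CPM in mock, siNegative and ASO-Neg, 7.22 in siSREBF1, and 1.77 and 2.43 in the ASO libraries; it rose by 3.01 (SE 0.30, adjusted p = 0.00867). IL1B was 3.497 CPM in siSREBF1 and 0.403 in siNegative, on 47 and 8 counts, and rose by 3.16 (SE 0.46, adjusted p = 0.0319). CXCL1, another neutrophil attractant, was 32.8 CPM in siSREBF1, 9.22 in siNegative and 26.1 in ASO-SREBF1-S1, a ratio of 1.82 that did not pass the test (adjusted p = 0.0679). CCL2, a monocyte attractant, was at a ratio of 1.503 and did not pass it either (adjusted p = 0.0518).

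The promoters of CXCL8, CXCL1 and NFKBIA are shown as examples. Their windows hold the kB letters GGANTTTCC, searched on both strands, and all 3 genes had higher levels in siSREBF1 than in any control. TNFAIP3 also met both conditions and is not shown. NF-kB is a transcription factor family that drives inflammatory genes, and NFKBIA is its feedback inhibitor. The windows run from 150 to 41 bases before the RefSeq start (GRCh38.p14), at chr4:73740419-73740528 (plus strand), chr4:73869243-73869352 (plus strand) and chr14:35404790-35404899 (minus strand), with the kB letters in capitals and, in CXCL8, also the AP-1 letters TGANTCA.
CXCL8: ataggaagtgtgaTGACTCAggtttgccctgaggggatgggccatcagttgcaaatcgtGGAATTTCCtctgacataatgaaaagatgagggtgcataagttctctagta
CXCL1: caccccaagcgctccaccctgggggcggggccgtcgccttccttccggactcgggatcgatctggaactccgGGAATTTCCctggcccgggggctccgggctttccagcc
NFKBIA: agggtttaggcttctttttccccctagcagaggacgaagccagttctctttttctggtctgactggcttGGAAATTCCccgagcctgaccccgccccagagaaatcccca
The kB letters were found in 1.47% of all promoters and in 5 of the 16 promoters of the NF-kB list in the table (NFKB1, NFKBIA, NFKBIZ, TNFAIP3 and ICAM1). They were found in 2 of the 26 higher genes (by either measure) with a promoter, CXCL8 and CXCL1. TGANTCA was found in 3 of these 26, IL1A, CXCL8 and SERPINB8. It was present in 6.596% of all promoters and in 3.55% of those of genes with at least 10 CPM.

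NF-kB subunit and feedback genes were above the controls more often than not, and none of the members matched to a counted gene passed the test. SOD2, also in the list, could not be matched to an identifier in the counts, so its level and test result are not known here. ENSG00000112096, described below, rose by 0.65 on the log2 scale but has no entry in the annotation used here. Whether this identifier is SOD2 was not settled, so whether a member of the list passed the test is open. Of 18 measured, 14 were above 0 and 13 were above all 3 controls, where 30.1% of all 9860 genes were, and the median was 0.15. NFKBIA measured 11.9, 11.6 and 11.9 CPM in mock, siNegative and ASO-Neg and 21.0 in siSREBF1 (ratio 0.85, adjusted p = 0.0606). TNFAIP3, a deubiquitinase that limits NF-kB, was at 0.68, PTGS2, the inducible cyclooxygenase, at 1.16, and PTX3, a secreted pattern-recognition protein, at 1.14. BIRC3, which stayed under 10 CPM, was at 1.95 (adjusted p = 0.0512).

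**Figure D3:**
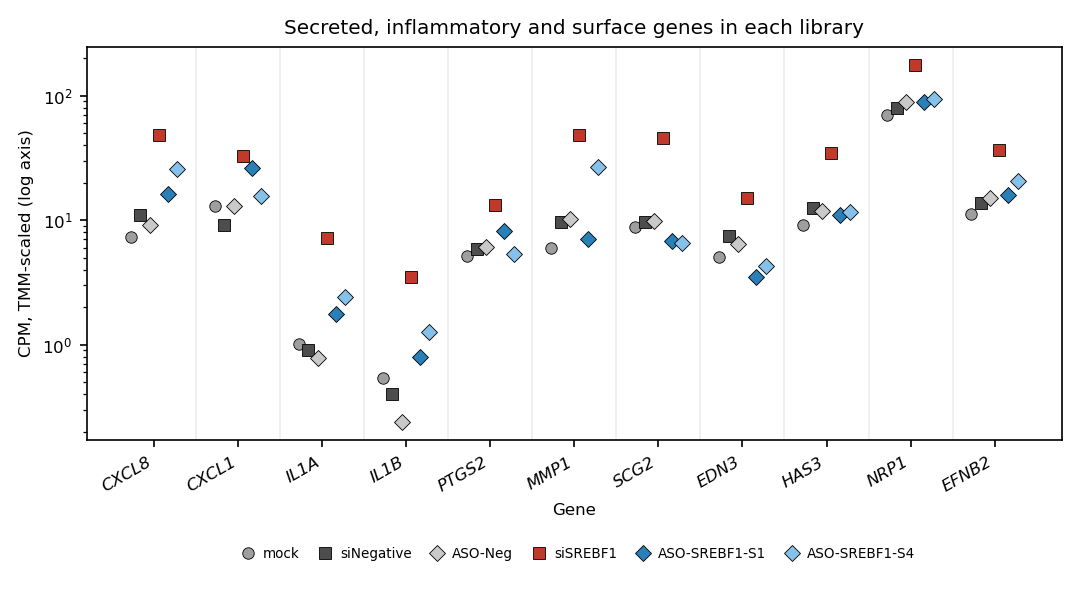
CPM on a log axis of 11 genes for secreted, inflammatory and surface proteins (horizontal axis) in each of the 6 libraries, 1 symbol a library with no error bars, since each is 1 sample. Red squares (siSREBF1) lie above all 3 grey controls for all 11 genes; the ASO libraries (blue) lie below the controls for SCG2 and EDN3 and above them for CXCL8, IL1A and IL1B.

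MMP1 had the highest ratio of all genes at 10 CPM or more but did not pass the test. MMP1, the interstitial collagenase, measured 5.96 CPM in mock, 9.67 in siNegative, 10.1 in ASO-Neg, 48.7 in siSREBF1, 7.03 with ASO-SREBF1-S1 and 26.9 with ASO-SREBF1-S4. The 2 ASO libraries lay on opposite sides of ASO-Neg, and they enter the spread of the fit. The ratio was 2.32 (95% interval 2.10 to 2.57), and the edgeR adjusted p was 0.131. In the same list of 17 metalloproteinases and inhibitors, 2 fell. MMP2, the gelatinase A, fell by 0.86 (SE 0.12, adjusted p = 0.0319), and ADAMTS3, a procollagen peptidase, by 1.29 (SE 0.17, adjusted p = 0.0211). MMP17 was at -0.91 (adjusted p = 0.0898).

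Cell surface and matrix genes went both ways. HAS3, a hyaluronan synthase, measured 9.14 CPM in mock, 12.5 in siNegative, 11.9 in ASO-Neg, 34.5 in siSREBF1, 10.96 with ASO-SREBF1-S1 and 11.6 with ASO-SREBF1-S4. It was high in siSREBF1 only, with the ASO libraries among the controls, and rose by 1.61 on the log2 scale (SE 0.17, edgeR adjusted p = 0.00867). NRP1, the neuropilin co-receptor for semaphorins and VEGF, rose by 1.16 (SE 0.12, adjusted p = 0.00867), to 177 CPM from 69.6 to 88.4 in the controls. EFNB2, the ligand ephrin-B2, rose by 1.47 (SE 0.18, adjusted p = 0.0187), to 36.9 CPM from 11.2 to 14.96 in the controls. SGCD, delta-sarcoglycan of the dystrophin complex, measured 37.6 CPM in mock, 35.3 in siNegative, 34.4 in ASO-Neg, 11.8 in siSREBF1, 19.7 with ASO-SREBF1-S1 and 20.6 with ASO-SREBF1-S4. SGCD was lowest in siSREBF1 and below the controls in both ASO libraries, and fell by 1.61 (SE 0.14, adjusted p = 0.00637). ANTXR1, an anthrax toxin receptor that binds collagen, fell by 1.16 (SE 0.11, adjusted p = 0.00867), to 74.5 CPM from 165 to 168, while the ASO libraries were at 179 and 151. The integrin subunits ITGA9, ITGA10 and ITGA11 had ratios of -1.18, -1.11 and -1.10 but adjusted p of 0.499, 0.452 and 0.507; each was higher in siNegative than in mock or ASO-Neg. In the matrix and adhesion list of 32 measured genes, 1 rose and 2 fell, with a median of -0.04 over siNegative and 0.21 over mock.

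The genes with the largest tested falls besides SREBF1 had mixed roles. SLCO4C1, an organic anion transporter, fell by 2.91 on the log2 scale (SE 0.38, edgeR adjusted p = 0.0197) but measured under 5 CPM in every library. IL21R, the interleukin-21 receptor, measured 16.9 CPM in mock, 17.6 in siNegative, 21.9 in ASO-Neg, 4.24 in siSREBF1, 5.22 with ASO-SREBF1-S1 and 8.004 with ASO-SREBF1-S4. It was below all controls in the 3 libraries with an SREBF1 reagent and fell by 2.15 (SE 0.31, adjusted p = 0.0305). ATP6V1D (ENSG00000100554, chromosome 14, 67294371 to 67360265), a subunit of the vacuolar proton pump, measured 65.7 CPM in mock, 66.1 in siNegative, 72.5 in ASO-Neg, 21.2 in siSREBF1, 78.4 with ASO-SREBF1-S1 and 74.2 with ASO-SREBF1-S4. It was low in siSREBF1 only, and fell by 1.68 (SE 0.11, adjusted p = 0.00098). The other 28 measured genes for the proton pump and lysosome had no call, and the list median was 0.01 over siNegative and -0.07 over mock. The 22 measured cytokine and chemokine receptor genes also had a median of 0.01, with IL21R as the single call. TTC7B, a scaffold of a phosphatidylinositol 4-kinase complex, fell by 1.29 (SE 0.12, adjusted p = 0.00789), MTPN, the actin-capping inhibitor myotrophin, by 0.99 (SE 0.10, adjusted p = 0.00867), and FBH1, a DNA helicase, by 1.03 (SE 0.10, adjusted p = 0.00867). EFCAB14 had the smallest of the 44 falls (-0.58, adjusted p = 0.0448). SLC2A6, a sugar transporter family member, fell by 1.21 (adjusted p = 0.0243) and NCR3LG1, a ligand of the natural killer receptor NKp30, by 1.12 (adjusted p = 0.0197). PRDX6, a peroxiredoxin, fell by 0.80 (adjusted p = 0.0367), DLAT, a pyruvate dehydrogenase subunit, by 0.75 (adjusted p = 0.0287), and PHLPP2, an AKT phosphatase, by 1.11 (adjusted p = 0.0367).

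The 44 genes that fell differed in their level in the ASO libraries. Set over ASO-Neg, these share no library with the ratio of siSREBF1 over siNegative, but ASO-Neg is 1 of the 3 controls behind the calls. The spread between the ASO libraries also enters the fit, so genes on which they differ were less likely to be called. Agreement of the 2 ASO libraries among the 44 is therefore partly set by the selection. Of the 44, 12 were lower than ASO-Neg by at least 0.5 on the log2 scale in both ASO libraries: SREBF1, SCD, INSIG1, FABP7, LPIN1, PGD, IL21R, SGCD, SLC2A6, PRUNE2, JAKMIP2 and SLCO4C1. Another 24 were lower by less than 0.25 in both ASO libraries or were not lower, ATP6V1D, ANTXR1, MTPN, PACSIN2, FBH1, MMP2 and MEF2C among them. The rest met neither limit: FASN, ACSL1, HADHA, ADAMTS3, TTC7B, NCR3LG1, DLAT and ANXA11. FASN was at -0.43 with ASO-SREBF1-S1 and -0.73 with ASO-SREBF1-S4. The share of all genes that meet these limits was not computed, so the counts have no background beside them. Below ASO-Neg at all were 30 of the 44 with ASO-SREBF1-S1 and 37 with ASO-SREBF1-S4. Among the 9860 genes these shares were 47.3% and 62.5%. The difference between siSREBF1 and the ASO pair was tested in the same fit, so it uses the same siSREBF1 library. It called 9 genes higher (0.0552%) and 15 lower (0.092%) of 16297, and 14 of the 15 lower ones were among the 44. ATP6V1D was lower than the ASO pair by this test (log2 difference -1.85, edgeR adjusted p = 0.000908), as were MTPN (-1.06, adjusted p = 0.0205), ANTXR1 (-1.15, adjusted p = 0.0205), FBH1 (-0.98, adjusted p = 0.0205), PACSIN2 (-0.85, adjusted p = 0.0448) and MEF2C (-0.98, adjusted p = 0.0291). SCD (-0.25, adjusted p = 0.624), FASN (-0.31, adjusted p = 0.614) and FABP7 (-0.24, adjusted p = 0.744) did not pass it; their differences had SEs of 0.12, 0.15 and 0.16. The 21 genes that rose included 4 that were higher than ASO-Neg by at least 0.5 in both ASO libraries (CXCL8, IL1A, IL1B and SPRR2D) and 6 that passed the difference test, among them SCG2 (2.78, adjusted p = 2e-04), HAS3 (1.62, adjusted p = 0.0234) and NRP1 (0.95, adjusted p = 0.04). Sequence, dose and chemistry all differ between the siRNA pool and the ASOs and cannot be told apart.

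**Figure D4:**
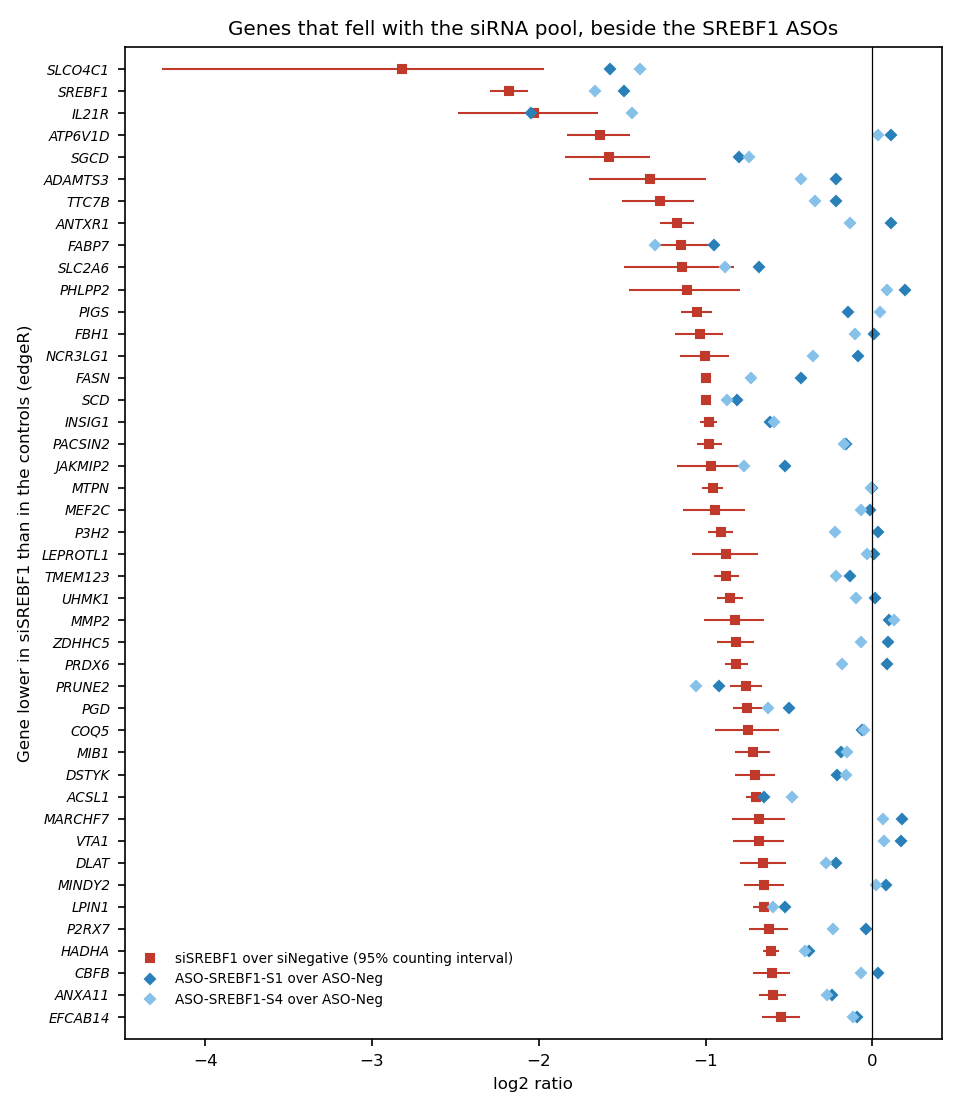
Log2 ratios (horizontal axis) of the 44 genes that fell in siSREBF1 against the controls, 1 gene a row: red squares with 95% counting intervals are siSREBF1 over siNegative, dark and light blue diamonds are ASO-SREBF1-S1 and ASO-SREBF1-S4 over ASO-Neg. For SREBF1, IL21R, SGCD, FABP7, SCD and INSIG1 the diamonds lie to the left of 0, while for ATP6V1D, ANTXR1, MTPN and FBH1 they lie near 0.

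Growth-factor response genes were more often above the controls than below. Of 24 measured AP-1 factors and MAPK output genes, 17 were above 0, with a median of 0.13. Above all 3 controls were 15 of them, where 30.1% of all 9860 genes were. DUSP5, a nuclear ERK phosphatase, was the single member past the test and rose by 0.80 on the log2 scale (SE 0.13, edgeR adjusted p = 0.0496). JUN, an AP-1 subunit, was at 1.23, HBEGF, an EGF receptor ligand, at 1.04, and EGR1, an immediate early transcription factor, at 1.02; these 3 met the size rule but did not pass the test. Other genes that rose included NEFL, the neurofilament light chain (0.79, adjusted p = 0.0197), ABHD17C, a depalmitoylase (0.83, adjusted p = 0.00867), STK17A, a death-associated protein kinase relative (0.67, adjusted p = 0.0415), SERTAD4 (1.25, adjusted p = 0.019) and PRRG4 (1.17, adjusted p = 0.0148). The last 6 of the 21 were MRGPRX4, GOLGA7B, MAPK8IP2, the pseudogene RPL23AP82, whose reads can be shared with near-identical copies, and ENSG00000112096 and ENSG00000236453, left by identifier because the annotation used here pairs neither with a gene symbol. ENSG00000112096 measured 152 CPM in siSREBF1 and 94.4 to 100.5 in the controls, and rose by 0.65 (SE 0.09, adjusted p = 0.0261).

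Interferon and RNA interference genes showed no common direction over siNegative. The interferon and sensor list had a median of -0.06 over mock and -0.16 over ASO-Neg, with 9 of 17 below and 3 above all 3 controls. Among all 9860 genes these shares were 33.9% and 30.1%. The RNA interference list had medians of 0.01 over mock and -0.09 over ASO-Neg. Of 17 measured interferon response genes and nucleic acid sensors, 10 were below 0, with a median of -0.00 and no call; RIGI was at 0.35, IFIT2 at 0.39 and EIF2AK2, the double-stranded RNA-activated kinase PKR, at -0.34. The 16 RNA interference genes had a median of -0.01 and no call, with AGO2, the slicing Argonaute, at 0.21 over siNegative and -0.02 over ASO-Neg.

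Mitochondrially encoded transcripts were lower. For scale, 33.9% of all 9860 genes were below all 3 controls. The mitochondrial set has 13 genes. All 13 were below 0 and 12 of 13 were below all 3 controls, with a median of -0.20, and none passed the test. MT-ND6 had the lowest ratio, -0.43, and MT-ATP6 measured 3491 CPM in siSREBF1 and 4576 to 4691 in the controls (adjusted p = 0.423). Their median over ASO-Neg was -0.21 with ASO-SREBF1-S1 and 0.05 with ASO-SREBF1-S4. The 30 nuclear-encoded respiratory chain genes had a median of 0.01 over siNegative but -0.12 over both mock and ASO-Neg, while the mitochondrially encoded ones had -0.21 and -0.22 over these.

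Mitotic genes were slightly lower, also without a call. Of 24 measured G2/M genes, 20 were below 0, with a median of -0.13. Below all 3 controls were 17 of them, where 33.9% of all 9860 genes were. CDC25C, the phosphatase that activates CDK1, was at -0.43, CCNA2, cyclin A2, at -0.41 and AURKB, a mitotic kinase, at -0.32. The 28 G1/S genes had a median of 0.01 over siNegative, 0.08 over mock and -0.06 over ASO-Neg. In bulk RNA, fewer cells in a phase and less RNA in each such cell cannot be told apart.

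Hypoxia targets and glycolysis genes had a median of 0.14, with 18 of 30 above all 3 controls and no call. Among all 9860 genes, 30.1% were above all 3 controls. NDRG1, a hypoxia and stress target, was highest of this list at 0.68, and VEGFA, the endothelial growth factor, was at 0.49. The ATF4 amino acid stress list had a median of 0.13 over siNegative but -0.07 over ASO-Neg, and the p53 list 0.11 and 0.08. Pigment cell genes, 14 of 19 below 0, had a median of -0.09 over siNegative and -0.45 over mock, and siNegative itself had -0.30 over mock. PMEL, the melanosome fibril protein, measured 3487 CPM in mock, 2622 in siNegative, 2738 in ASO-Neg and 2045 in siSREBF1 (adjusted p = 0.473). The lists for the unfolded protein response, YAP and TEAD targets, the dedifferentiated melanoma state, and the BCL2 family and caspases had medians of 0.01, 0.03, 0.04 and 0.06 over siNegative and no call. Over mock these were 0.14, 0.18, 0.28 and -0.02, and over ASO-Neg 0.02, -0.01, 0.09 and -0.01. The antigen presentation list had a median of 0.08 over siNegative, 0.05 over mock and -0.04 over ASO-Neg, and no call; HLA-DMA, a class II peptide-loading gene, was at -0.72 (adjusted p = 0.0688) and was lower than in the ASO pair (adjusted p = 0.04).

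**Figure D5:**
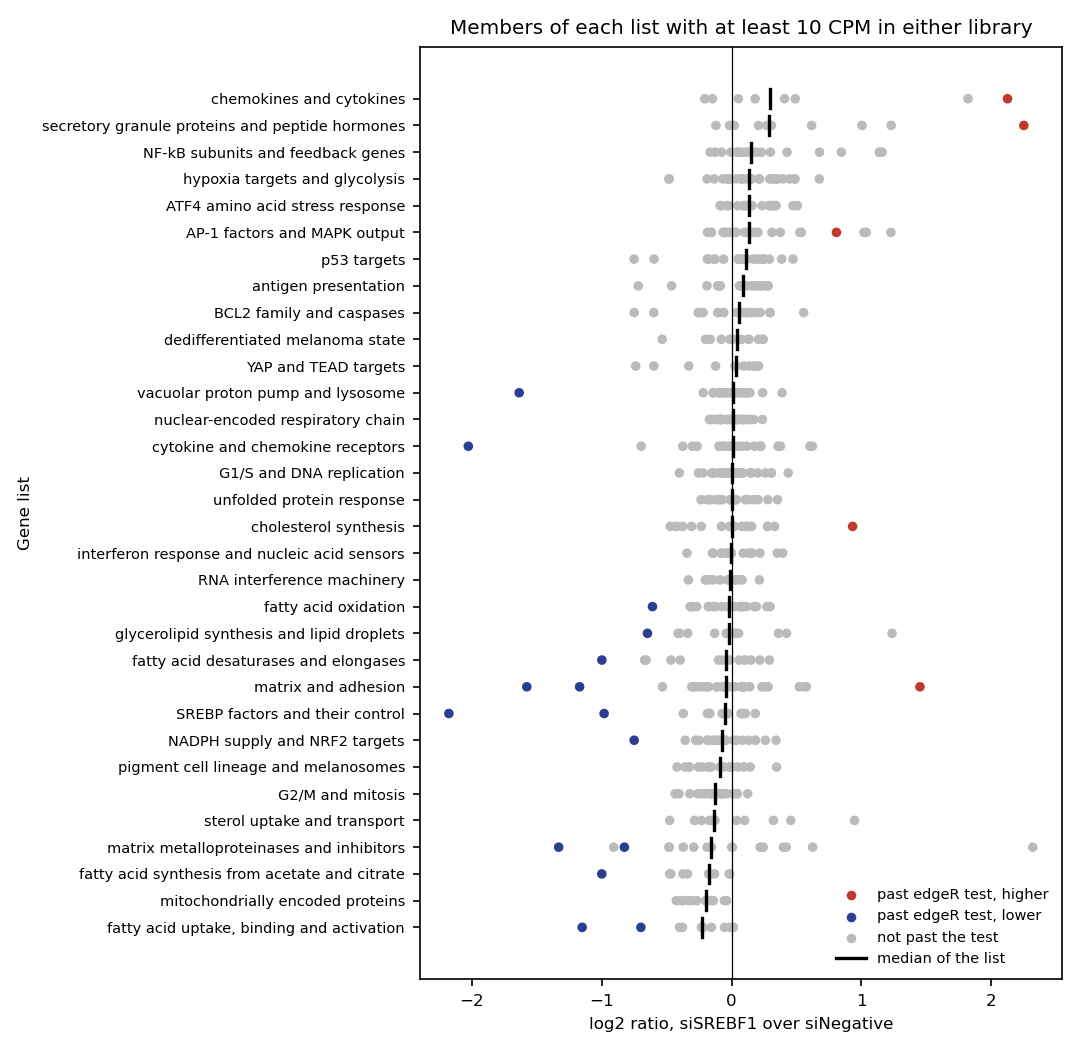
Log2 ratio of siSREBF1 over siNegative (horizontal axis) for each member with at least 10 CPM, 1 point a gene, in the gene lists with 8 or more such members (vertical axis, ordered by median); bars mark medians and colour marks genes past edgeR's test against the 3 controls. The medians run from -0.23 for fatty acid uptake, binding and activation to 0.29 for chemokines and cytokines, and single genes such as SREBF1, IL21R, ATP6V1D, SCG2, CXCL8 and MMP1 lie far from their lists.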

How the data were processed

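Poly(A) RNA of HT-144 cells was sequenced from strand-specific paired-end libraries, per the labels' protocols. The submitters' processing notes name STAR 2.6.1a, FastQC and GRCh38. The authors deposited 24 tables of read counts per gene, unstranded and for either strand; the annotation release is not given in the sources used here. The reverse-strand counts were used, since 6.47% to 7.79% of strand-assigned counts were on the other strand. The 4 summary lines of each file were left out; 80.7% to 81.8% of read pairs were assigned to genes. The 4 lanes of a library differed by little more than sampling noise (chi-square per degree of freedom 1.02 to 1.05) and were summed. Of 58735 gene IDs, 58207 matched GENCODE 44, the source of gene symbols and coordinates.

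CPM used TMM factors from all 6 libraries (edgeR 4.0.16, R 4.3.3). Ratios used a prior count of 2 and Clopper-Pearson 95% intervals, which cover counting error only; 3 counts equal 0.0626 to 0.232 CPM. The edgeR quasi-likelihood test, 2-sided, was fitted to all 6 libraries in 3 classes (controls, ASO pair, siSREBF1; 3 residual degrees of freedom) after filterByExpr, with Benjamini-Hochberg adjustment over all 16297 genes, and was tested on simulated data. DESeq2 1.42.0 and limma 3.58.1 served as alternatives. Promoters are RefSeq's. A rule set the genes that could be named: SREBF1, SREBF2, the given markers and the 15 largest ratios each way. It also took the 10 largest tested changes each way at 5 CPM or more, and up to 4 members a list with the largest ratios. Not all of these are described above. Among the 15 largest ratios, those left out were SIRPB1 (1.78), TCN1 (1.63), ENSG00000272405 (1.42), SCARA5 (1.38), ENSG00000274414 (1.35) and TREM1 (1.32). On the lower side they were TSC22D3 (-1.33) and PIGS (-1.05). Other genes were named after their values were seen. The members and lists were chosen with earlier results of these data known.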

Additional observations from a re-analysis of the deposited data

Results flagged for a closer look

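SCG2 was higher in siSREBF1 than in siNegative (log2 ratio 2.25) but lower than ASO-Neg in both libraries with an ASO against SREBF1 (-0.54 and -0.59), and the difference between siSREBF1 and the ASO pair passed edgeR's test (adjusted p = 2e-04). EDN3 was likewise higher in siSREBF1 (1.00) and lower in both ASO libraries (-0.86 and -0.59), with an edgeR adjusted p of 0.0291 for the difference.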

How the results depend on the processing

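The count of 21 genes that rose and 44 that fell against the 3 controls moved with the fit: to 78 and 119 with DESeq2, 265 and 193 with no filter on low counts, and 274 and 294 with only siSREBF1 and the 3 controls. It was 1 and 2 with siRNA use as a term, where 778 genes had an unadjusted p under 0.05. Leaving out 1 library at a time gave 1 to 282 higher and 2 to 303 lower, with 1 and 2 without mock, without siNegative or without ASO-Neg, 280 and 300 without ASO-SREBF1-S1, and 282 and 303 without ASO-SREBF1-S4. SCG2, SREBF1 and ATP6V1D were called in all 12 alternatives. With limma-voom (16 and 33), RLE factors (23 and 45) and unstranded counts (23 and 45) the counts stayed within 1.5 times. The 30 higher and 18 lower genes by size became 209 and 113 at 1 CPM or more, 1285 and 1568 with no filter, and 52 and 22 over mock. Leaving out 1 lane on both sides gave 26 to 29 higher and 23 to 27 lower, and the share of higher genes, 62.5%, became 49.1% to 55.8%. The SREBF1 ratio of -2.18 was -2.06 over mock, -2.003 over ASO-Neg and -2.2345 to -2.1704 without 1 lane. No named gene past a call changed sign. With mock or ASO-Neg in place of siNegative, 38 list medians moved by more than the spread between controls and 34 did not. No paired analysis was possible because the replicate numbers mark sequencing lanes of 1 library. With 1 library a group, spread between cultures was not measured.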
